A study of Homo sapiens with 6 samples.

Results

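The genes of the unfolded protein response (UPR) of the endoplasmic reticulum (ER) were examined in RNA-seq counts of U87MG cells, an established human glioblastoma cell line that the labels give as wild type. The group holds 35 genes taken from a list of ER chaperones, disulfide isomerases, genes of ER-associated degradation (ERAD) and UPR sensors, out of 65988 gene identifiers in each count file. The list was matched by symbol to Ensembl identifiers. The cells had received vehicle (control, n = 3 libraries) or RSL3 at 2 µM (n = 3 libraries). The labels give no time, which the study's text gives as a day. RSL3 is a small molecule that inhibits GPX4, the enzyme that reduces lipid hydroperoxides, and is used to trigger ferroptosis, a form of cell death driven by lipid peroxidation. All libraries came from 1 cell line, and the labels do not say whether the 3 libraries of a group came from separate cultures, so the p-values measure only the spread between these libraries.

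The ER folds secreted and membrane proteins, and the UPR is the pathway by which a load of unfolded proteins in the ER raises the output of folding and degradation factors. It starts at 3 membrane sensors. ERN1 (IRE1α) splices the mRNA of the transcription factor XBP1, EIF2AK3 (PERK) phosphorylates eIF2α and so slows translation, and ATF6 is cleaved in the Golgi to release a transcription factor. The ER chaperone HSPA5 (BiP) binds the sensors and is itself a classic target of the pathway.

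Total counts ranged from 27813462 to 43306335 per library, and TMM normalization factors from 0.995 to 1.01. After the filter on low counts 16105 genes were tested by the quasi-likelihood F test of edgeR, and a gene was called at a Benjamini-Hochberg adjusted p under 0.05. Over all genes tested, 2082 (12.9%) were higher and 2041 (12.7%) were lower after RSL3. Of the glioma and mesenchymal markers, VIM, CD44 and CHI3L1 had medians of 2050, 287 and 209 TPM (transcript counts scaled for length and library size), while NES, GFAP and OLIG2 lay at 1.99, 1.56 and 8.74 and SOX2 and S100B were at or near 0. Markers of other cell types were at or near 0 for PTPRC, PECAM1 and RBFOX3 and low for EPCAM, CD68 and MBP, the highest median being 3.18 TPM for MBP. The share of counts from mitochondrially encoded genes was 1.18%, 1.26% and 0.918% in control replicates 1, 2 and 3 and 0.840%, 0.868% and 0.912% in RSL3 replicates 1, 2 and 3. Its part in the differences given here was not tested. In bulk RNA, less RNA per cell and fewer cells of a type cannot be told apart.

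Many ER chaperone genes carry an ER stress response element (ERSE), to which NF-Y and cleaved ATF6 or spliced XBP1 bind. The sequences shown are those of members whose promoter held such an element, since the members that rose and those that did not are both among them. RefSeq promoters (GRCh38.p14, 250 bases before to 50 after the start) were matched for 32 of the 35 members. They were searched on both strands for the ERSE, CCAAT then any 9 bases then CCACG, and for the shorter ERSE-II, ATTGG then 1 base then CCACG. An ERSE was found in 8 of 32 members (25%) and in 25 of 27305 symbols with a promoter (0.0916%). An ERSE-II was found in 3 members (9.38%) and in 19 symbols (0.0696%). The counts over all symbols include the members. The members were listed as UPR genes, so the higher shares among them are a description and no test. The search allowed no mismatch, so elements that depart from these letters were not found and are not marked in the sequences. The upstream sequence of HSPA5, chr9:125241383-125241593 on the minus strand, reads 5′ to 3′ as follows, with the exact match to the ERSE in capitals.
HSPA5: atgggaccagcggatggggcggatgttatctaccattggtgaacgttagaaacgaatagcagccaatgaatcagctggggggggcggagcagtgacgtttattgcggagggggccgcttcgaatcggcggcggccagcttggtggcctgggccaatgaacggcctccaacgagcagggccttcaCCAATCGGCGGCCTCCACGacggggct

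Its capitals lie 66 to 48 bases before the start. The corresponding stretches of 5 further genes were CALR at chr19:12938364-12938422 (plus strand), CRELD2 at chr22:49918534-49918592 (plus), ERO1B at chr1:236282163-236282208 (minus), PDIA6 at chr2:10812840-10812891 (minus) and XBP1 at chr22:28800598-28800641 (minus). Each is written 5′ to 3′ along its gene with the ERSE in capitals, and in CALR, CRELD2 and ERO1B the element reads in the reverse orientation.
CALR: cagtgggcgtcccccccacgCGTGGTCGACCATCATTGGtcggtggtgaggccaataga
CRELD2: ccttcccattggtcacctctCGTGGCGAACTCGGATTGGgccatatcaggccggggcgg
ERO1B: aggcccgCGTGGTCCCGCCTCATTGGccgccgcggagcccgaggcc
PDIA6: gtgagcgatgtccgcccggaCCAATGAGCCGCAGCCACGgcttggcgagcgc
XBP1: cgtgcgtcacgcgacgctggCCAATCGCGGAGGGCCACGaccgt

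The ERSE-II of SDF2L1 lay within chr22:21642094-21642144 (plus), that of HERPUD1 within chr16:56932005-56932055 (plus), and HYOU1 had a pair of them, of which the one nearer to the start lay within chr11:119057254-119057304 (minus). The element is in capitals.
SDF2L1: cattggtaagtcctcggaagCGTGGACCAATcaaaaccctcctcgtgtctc
HERPUD1: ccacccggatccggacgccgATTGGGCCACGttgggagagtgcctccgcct
HYOU1: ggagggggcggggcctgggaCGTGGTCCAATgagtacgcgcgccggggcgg

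HSP90B1 and CANX also held an ERSE. A match of letters is a description and not a measured binding site.

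Of the 35 genes, 33 passed the filter, 14 of them (42.4%) were higher, 1 (3.03%) was lower and 18 were not called. These shares stand beside 12.9% higher and 12.7% lower over all genes tested. The members were chosen with earlier results of these data known, so the comparison is a description. It was not matched for level. In control 6 members lay over 1000 TPM and 15 between 100 and 1000 TPM, and small changes are called more readily in abundant genes. How much of the 42.4% goes with level was not tested. The changes were small, from 5.84% to 25.7% among the genes that rose, and 0 members changed by a factor of 2 or more. The median log2 fold change of the 33 genes was 0.078, against -0.004 over all genes tested, and 26 values were positive and 7 negative. In 18 members every RSL3 library lay above every control library and in 1 member every RSL3 library lay below, where over all genes tested the shares were 19.3% and 19.3%. The coefficient of variation between libraries of a group had a median of 2.68% in control and 2.33% after RSL3.

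**Figure D1:**
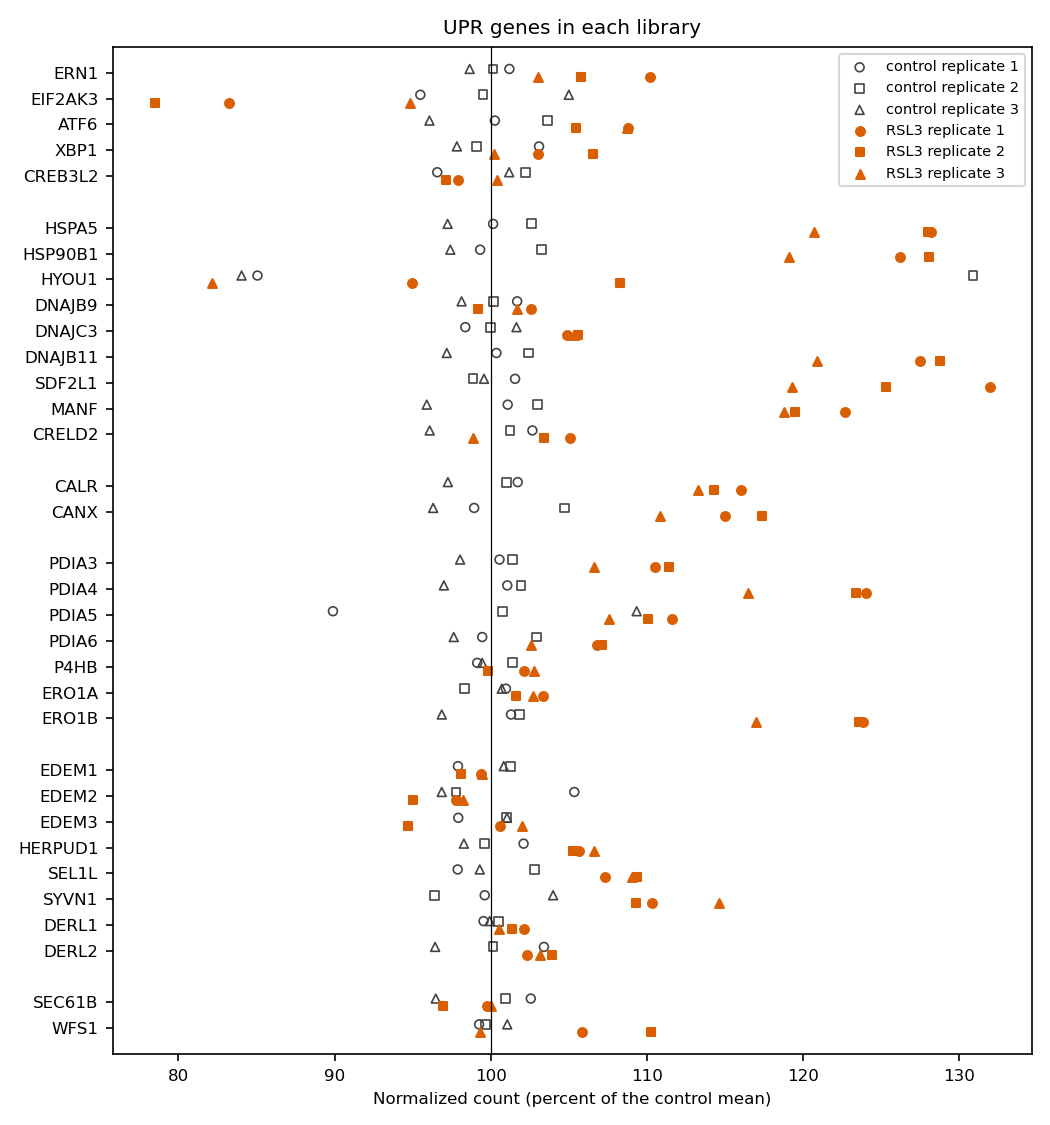
Normalized count of each UPR gene in each library, as a percentage of the mean of the 3 control libraries (x axis, in percent), by role from sensors (top) to translocon and membrane genes (bottom). Open symbols are control libraries and filled symbols RSL3 libraries, with 1 symbol shape per replicate number; the filled symbols lie to the right of all open ones in 18 genes and to the left in 1, EIF2AK3.

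Replicate 3 was the lowest RSL3 library in 10 of the 14 genes that rose, and replicate 3 was also the lowest control library in 11 of the 14. The number of members called higher was 15 without RSL3 replicate 3 and 14 without control replicate 3. All of the 14 but ATF6 and HERPUD1 were called higher in each of 16 other fits.

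The strongest changes were in the HSP70 and HSP90 chaperone system of the ER lumen. There 5 of 9 genes rose (55.6%, beside 12.9% over all genes tested) and 4 were not called. HSPA5 (ENSG00000044574, chr9:125234853-125241382) is the lumenal HSP70 that holds unfolded chains and regulates the sensors. Its normalized counts were 427954, 438416 and 415505 in control and 547675, 546932 and 515759 after RSL3. The groups were well apart, and the log2 fold change was 0.33 (SE 0.025, 95% interval 0.28 to 0.38, edgeR adjusted p = 3.70e-09), a rise of 25.6%. HSPA5 alone took up 1.23% to 1.28% of all counts in control and 1.51% to 1.60% after RSL3. All members together took up 3.01% to 3.13% and 3.51% to 3.66%, and without HSPA5 1.79% to 1.85% and 2.00% to 2.06%.

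HSP90B1 (GRP94), the HSP90 of the ER, had 106346, 110559 and 104300 normalized counts in control and 135159, 137132 and 127505 after RSL3. Its log2 fold change was 0.32 (SE 0.029, edgeR adjusted p = 3.83e-08). DNAJB11 (ERdj3), a J protein that hands unfolded clients to HSPA5, rose from 7920, 8084 and 7669 to 10062, 10163 and 9538, with a log2 fold change of 0.33 (SE 0.033, edgeR adjusted p = 1.43e-07). SDF2L1, which forms a complex with DNAJB11, rose from 4018, 3912 and 3940 to 5222, 4958 and 4720, by 0.33 (SE 0.037, edgeR adjusted p = 8.86e-07). The 4 values from 0.32 to 0.33 cannot be ordered, since their intervals overlap. Of all 16105 genes tested, DNAJB11 ranked 1413 by log2 fold change from the highest.

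MANF, a secreted ER resident that binds HSPA5, had 13943, 14208 and 13229 normalized counts in control and 16919, 16479 and 16381 after RSL3, a rise of 20.3% (log2 fold change 0.27, SE 0.031, edgeR adjusted p = 1.25e-06). Other targets of the same pathway were not called. DNAJB9 (ERdj4), a J protein and a classic target of XBP1, had 6377, 6281 and 6154 counts in control and 6434, 6219 and 6376 after RSL3. The groups overlapped, and its log2 fold change was 0.016 (95% interval -0.049 to 0.081, edgeR adjusted p = 0.766). CRELD2, an ER-resident protein with disulfide isomerase activity that is counted here with the chaperones, was at 0.034 (95% interval -0.038 to 0.11, edgeR adjusted p = 0.531).

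DNAJC3 (p58IPK), an HSP70 cochaperone and an inhibitor of PERK, was at 0.074 (edgeR adjusted p = 0.0619) with all 3 RSL3 libraries, from 11795 to 11872, above the control libraries, from 11063 to 11432. It was not called, though 7 of 16 other fits called it. HYOU1 (GRP170), the nucleotide exchange factor of HSPA5, had only 1858 reads over the 6 libraries, and RPS25, a ribosomal protein gene 25.5 kb away, had 547. Its normalized counts were 275, 423 and 272 in control and 307, 350 and 266 after RSL3, and the interval from -0.35 to 0.24 leaves the direction of its change undetermined.

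**Figure D2:**
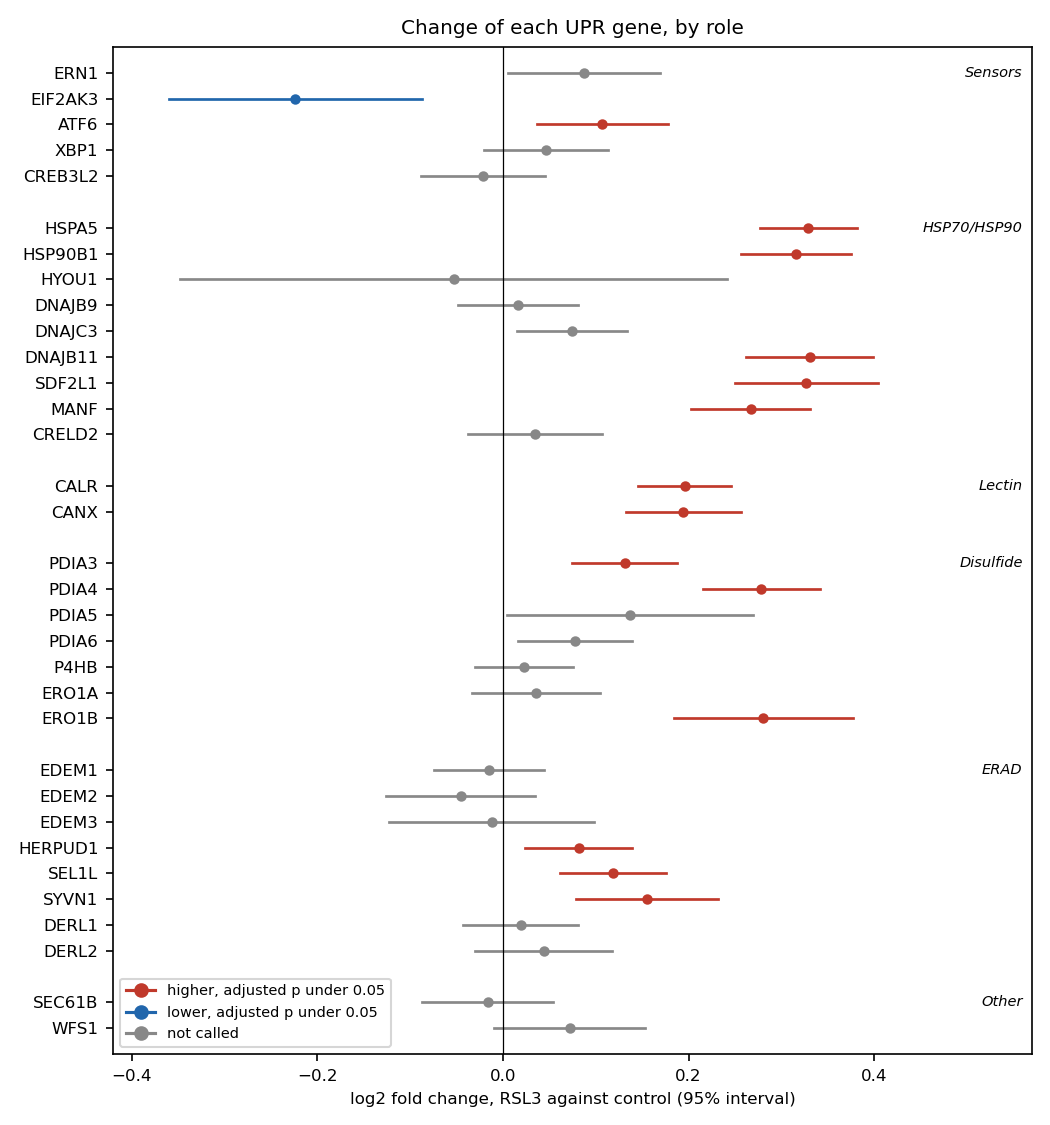
log2 fold change of RSL3 against control (x axis) for the 33 UPR genes tested, by role, with the 95% interval as a horizontal line. Red points are the 14 genes called higher, the blue point is EIF2AK3, called lower, and grey points are the 18 genes not called; the 4 highest points, DNAJB11, HSPA5, SDF2L1 and HSP90B1, lie at 0.32 to 0.33.

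Both lectin chaperones rose, beside 12.9% of all genes tested. CALR (calreticulin) and CANX (calnexin) hold newly made glycoproteins by their trimmed sugar chains, CALR in the lumen and CANX in the membrane. CALR had 130808, 129880 and 125058 normalized counts in control and 149217, 146981 and 145636 after RSL3, a log2 fold change of 0.20 (SE 0.024, edgeR adjusted p = 2.84e-06). CANX had 85414, 90423 and 83148 in control and 99257, 101345 and 95681 after RSL3, a log2 fold change of 0.19 (SE 0.030, edgeR adjusted p = 4.24e-05).

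Among the genes that make and rearrange disulfide bonds, 3 of 7 rose (42.9%, beside 12.9% over all genes tested) and 4 were not called. CRELD2 was counted above. PDIA4 (ERp72), a disulfide isomerase of the HSPA5 chaperone complex, had 25420, 25640 and 24399 normalized counts in control and 31201, 31040 and 29289 after RSL3. Its log2 fold change was 0.28 (SE 0.030, edgeR adjusted p = 5.28e-07). PDIA3 (ERp57), the isomerase that works with CALR and CANX, rose by 9.51%, from 34049, 34331 and 33195 to 37421, 37717 and 36092 (edgeR adjusted p = 0.00101). P4HB, the classical disulfide isomerase PDI, was at 0.023 (95% interval -0.030 to 0.075, edgeR adjusted p = 0.571), PDIA5 at 0.14 (edgeR adjusted p = 0.126) and PDIA6 at 0.078 (edgeR adjusted p = 0.0581). PDIA6 was called in 9 of 16 other fits.

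The oxidases ERO1A and ERO1B recharge the disulfide isomerases. ERO1B had 1357, 1365 and 1298 normalized counts in control and 1659, 1656 and 1568 after RSL3, a log2 fold change of 0.28 (SE 0.046, edgeR adjusted p = 9.47e-05). ERO1A, also a hypoxia target, had 3624, 3529 and 3615 in control and 3710, 3647 and 3687 after RSL3, a log2 fold change of 0.036 (95% interval -0.033 to 0.10, edgeR adjusted p = 0.491). Although its groups did not overlap, the change was 2.51%.

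Differences between related members were taken as ratios of normalized counts within a library. These 4 pairs were chosen after their values were seen. The ratio of ERO1B to ERO1A was 0.359 to 0.387 in control and 0.425 to 0.454 after RSL3, and that of PDIA4 to P4HB was 0.470 to 0.491 and 0.546 to 0.595. The ratio of HSPA5 to its cochaperone DNAJB9 was 67.1 to 69.8 and 80.9 to 88.0, and that of the ERAD scaffold SEL1L to the mannosidase-like EDEM1 was 2.09 to 2.15 and 2.29 to 2.36. The groups of each ratio did not overlap. Each two-sided exact permutation test gave p = 0.1, also after Benjamini-Hochberg adjustment over the 4 pairs, which is the smallest p that 3 against 3 libraries allow. Because the pairs were chosen on their values, the ratios are given as a description only.

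In ERAD, the route by which misfolded proteins leave the ER for the proteasome, 3 of 8 tested genes rose and 5 were not called. The share that rose was 37.5%, beside 12.9% over all genes tested. SYVN1 (HRD1), the ubiquitin ligase at the centre of the ERAD channel, had 3404, 3294 and 3554 normalized counts in control and 3771, 3735 and 3916 after RSL3, a rise of 11.3% (edgeR adjusted p = 0.00318). Its partner SEL1L rose by 8.60%, from 27003, 28363 and 27394 to 29607, 30179 and 30076 (edgeR adjusted p = 0.00251). HERPUD1, a membrane protein of the same complex and a short-lived UPR target, had the smallest called rise, 5.84% (18205, 17760 and 17523 against 18838, 18768 and 19008, edgeR adjusted p = 0.0332). Its call was lost on leaving out any library but control replicate 1, with edgeR adjusted p from 0.0599 to 0.0942, and with 2 surrogate variables (DESeq2 adjusted p = 0.0804).

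The EDEM proteins trim mannose from misfolded glycoproteins and mark them for ERAD. EDEM1, EDEM2 and EDEM3 were at -0.015, -0.046 and -0.012, and none was called (edgeR adjusted p = 0.765, 0.440 and 0.907). The sign of EDEM1 turned under offsets for GC content, and that of EDEM3 under the same offsets and without RSL3 replicate 2. DERL1 and DERL2, membrane proteins of the ERAD channel, were at 0.019 and 0.044 (edgeR adjusted p = 0.704 and 0.415).

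Of the sensors and transcription factors, 1 of 5 tested genes rose, 1 fell and 3 were not called. The shares of 20% and 20% come from only 5 genes and stand beside 12.9% and 12.7% over all genes tested. ATF6 (ENSG00000118217, chr1:161766298-161977574) had 5768, 5963 and 5527 normalized counts in control and 6257, 6066 and 6255 after RSL3. The groups did not overlap, and the log2 fold change was 0.11 (SE 0.034, edgeR adjusted p = 0.0230). That call was lost without control replicate 3 (edgeR adjusted p = 0.104) and without RSL3 replicate 1 (edgeR adjusted p = 0.0874), and with 2 surrogate variables (DESeq2 adjusted p = 0.0962).

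EIF2AK3 (ENSG00000172071, chr2:88556741-88691518), the PERK kinase, was the 1 member that fell. It had 1025, 1068 and 1127 normalized counts in control and 894, 843 and 1018 after RSL3, a log2 fold change of -0.22 (SE 0.066, 95% interval -0.36 to -0.087, edgeR adjusted p = 0.0147). RSL3 replicate 3 lay just below the lowest control library. The call was lost without control replicate 3 (edgeR adjusted p = 0.0823), without RSL3 replicate 1 (0.0598) and without RSL3 replicate 2 (0.116), and with 2 surrogate variables (DESeq2 adjusted p = 0.126).

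ERN1 (ENSG00000178607) was at 0.088 (95% interval 0.0058 to 0.17, edgeR adjusted p = 0.112), with 2227, 2204 and 2171 normalized counts in control and 2425, 2327 and 2267 after RSL3. XBP1 (ENSG00000100219) had 9898, 9511 and 9393 in control and 9893, 10232 and 9622 after RSL3, a log2 fold change of 0.046 (95% interval -0.021 to 0.11, edgeR adjusted p = 0.332). Counts per gene do not separate spliced from unspliced XBP1 mRNA, nor do they measure the cleavage of ATF6 or the phosphorylation of PERK. CREB3L2, a transcription factor cut in the Golgi as ATF6 is, was at -0.021 (edgeR adjusted p = 0.700). SEC61B, a subunit of the channel through which new proteins enter the ER, was at -0.016 (edgeR adjusted p = 0.786), with a sign that turned under offsets for GC content and without control replicate 1. WFS1 (wolframin), a membrane protein that regulates ER calcium, was at 0.072 (edgeR adjusted p = 0.198).

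A pair of members could not be tested. ATF6B, the paralog of ATF6, had 18 reads over the 6 libraries and lies in the major histocompatibility region, where 11.5% of protein-coding genes passed the filter. DERL3 had 34 reads and shares 77.0% of its exon bases with another gene, SMARCB1. Because the counting ignored strand, reads over shared exons cannot be given to 1 gene. Of the other members, PDIA6 shares 25.2%, PDIA5 14.2% and DNAJB11 14.2% of its exon bases with 1 or more neighbours, and 14 of the 35 share none. Overlaps are those of GENCODE v44 and may differ from those in the annotation used for counting.

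Levels between genes were compared per length, in TPM of the control group (mean ± SD, n = 3). HSPA5 stood highest at 7714 ± 144, followed by CALR at 4788 ± 42.6, HSP90B1 at 2724 ± 68.1, P4HB at 1517 ± 28.0, CANX at 1243 ± 46.5 and MANF at 1074 ± 27.1. Each step down this order exceeded the spread between libraries, which leaves out any error in the transcript length. Counts over all exons were divided by the length of the canonical transcript. That length was 2437 bases for P4HB, 4915 for CANX and 909 for MANF, against 11132, 13764 and 2139 exon bases over all transcripts. The order of these genes may therefore depend on the length used, which was not tested. With canonical lengths, PDIA3 (651 ± 5.66) and PDIA4 (644 ± 9.04) did not differ beyond their spread between libraries. Nor did DNAJB11 (341 ± 5.95) and SDF2L1 (340 ± 4.96). The sensors were among the lowest, with ATF6 at 54.5 ± 1.56, ERN1 at 19.7 ± 0.0681 and EIF2AK3 at 16.8 ± 1.06. HYOU1 was lowest of the members tested at 4.98 ± 1.31, but its low count, whose cause was not tested, leaves that level uncertain.

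Of the 6 members over 1000 TPM in control 5 rose, the exception being P4HB. Of the 15 between 100 and 1000 TPM 6 rose, and of the 12 below 100 TPM 3 rose and 1 fell. Over all genes tested, at any level, 12.9% were higher and 12.7% lower. Shares over all genes within each level class were not computed, so these counts are a description. The median SE of the log2 fold change was 0.027, 0.030 and 0.039 in these 3 classes, so small changes could be called less readily in the lowest class.

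**Figure D3:**
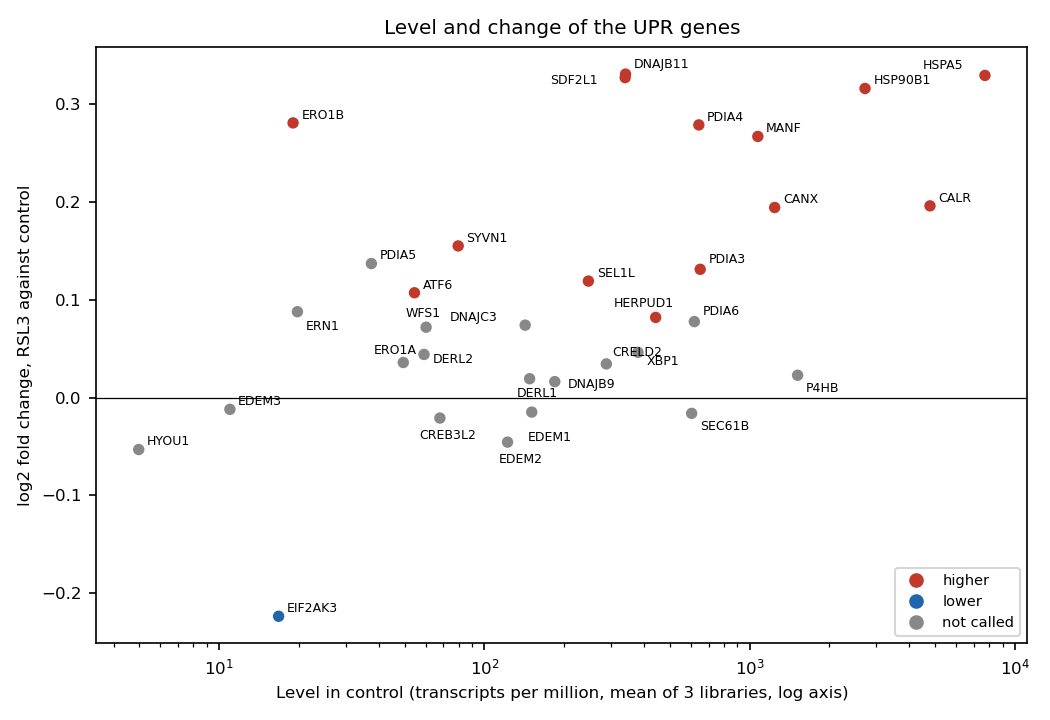
log2 fold change of RSL3 against control (y axis) against the level in control in TPM (x axis, log scale, mean of 3 libraries) for each of the 33 UPR genes tested. Red points were called higher, blue lower and grey not called; 5 of the 6 genes to the right of 1000 TPM are red, and P4HB, at 1517 TPM, is grey near 0.

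The members were then set beside their promoter sequences. Of the 8 genes with an ERSE, 5 rose (HSPA5, HSP90B1, CALR, CANX and ERO1B) and 3 were not called (XBP1, CRELD2 and PDIA6), with a median log2 fold change of 0.195. Of the 3 genes with an ERSE-II, SDF2L1 and HERPUD1 rose and HYOU1, which had few reads, was not called. Of the 21 promoters that held neither, 6 belonged to genes that rose, 1 to the gene that fell, 13 to genes not called and 1 to a gene not tested, with a median of 0.058. DNAJB11, MANF and PDIA4 were among those 6, so an exact match in this window did not separate the genes that rose from the others. The 8 and 3 genes are too few, and were chosen with results known, for a test of that difference. The search allowed no mismatch, so promoters counted as holding neither may hold variants of these elements. Whether working elements separate the genes cannot be told from it.

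Further motifs were searched on both strands. The core of the UPR element, TGACGTG, was found in 1 of 32 members, HYOU1 (3.13%, against 2.40% of all symbols with a promoter). In HYOU1 it overlaps the ERSE-II farther from the start. The amino acid response motif TTGCATCA, to which ATF4 with a CEBP partner binds, was found in 1, HERPUD1 (against 1.08%). The antioxidant response motif TGACNNNGC was found in 7 of 32 (21.9%, against 16.1%).

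The other genes of the ER and of the stress response were taken from 8 lists of 179 genes, of which 176 were tested. In all, 47 (26.7%) were higher and 25 (14.2%) lower, with a median log2 fold change of 0.024. Over all genes tested 12.9% were higher and 12.7% lower, so the share lower in these lists was near that background, and the counts of single lists are small. These shares were not matched for level either. Of the 16 genes of the PERK branch and the integrated stress response, 8 (50%) rose, 3 (18.8%) fell and 5 were not called. STC2, a secreted glycoprotein induced by ER stress, had 22270, 23168 and 20643 normalized counts in control and 31960, 32459 and 29497 after RSL3, a log2 fold change of 0.51 (edgeR adjusted p = 3.40e-09). The transcription factor ATF5 rose by 0.37 on the log2 scale (edgeR adjusted p = 4.81e-08). ATF4, the main transcription factor translated when eIF2α is phosphorylated, fell in its mRNA, from 28981, 28122 and 27764 to 26252, 25733 and 25641 (log2 fold change -0.13, edgeR adjusted p = 0.00121), and DDIT4, an inhibitor of mTORC1 signalling, was lower too (-0.12, edgeR adjusted p = 0.00498). Several other genes of this list known as targets of ATF4 or of the same branch rose. Named after their values were seen, these were PPP1R15A (0.37), which directs the phosphatase of eIF2α, CHAC1 (0.34), which breaks down glutathione, ATF3 (0.33), TRIB3 (0.16), CEBPB (0.13) and PPP1R15B (0.11), while SESN2 (-0.08) fell. The 5 genes not called were also named after their values were seen. DDIT3 (CHOP) was at 0.040 and ASNS, a target of ATF4, at -0.045 (edgeR adjusted p = 0.610 and 0.286). NUPR1, CEBPG and EIF2S1 were at 0.076, 0.066 and -0.0057 (edgeR adjusted p = 0.0817, 0.123 and 0.929). Exon bases shared with 1 or more other genes made up 22.1% of ATF5, 12.6% of CEBPB and 39.6% of DDIT3. They made up 49.3% of ASNS and 16.5% of NUPR1. These overlaps are those of GENCODE v44, and whether the annotation used for counting held the same ones is not known.

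Among the 17 other regulators of the response that were tested, 2 (11.8%) rose and 3 (17.6%) fell, shares near those over all genes tested. TMBIM6, an ER membrane protein that restrains IRE1, rose by 0.13 on the log2 scale (edgeR adjusted p = 6.97e-04). RTCB, the ligase that joins the XBP1 exons after IRE1 has cut them, rose by 0.093 (edgeR adjusted p = 0.0474), a call that 11 of 16 other fits did not make and that was lost on leaving out any library (edgeR adjusted p from 0.0568 to 0.133). CREB3L1 (log2 fold change -0.35, edgeR adjusted p = 9.71e-06), a relative of CREB3L2, fell. BLOC1S1 fell too (-0.32, edgeR adjusted p = 0.0232), whose mRNA IRE1 is known to cleave in regulated decay. The call of BLOC1S1 was lost without control replicate 1, RSL3 replicate 1 or RSL3 replicate 2 (edgeR adjusted p = 0.105, 0.0919 and 0.12) and with 1 or 2 surrogate variables (DESeq2 adjusted p = 0.0660 and 0.185), and 36.6% of its exon bases are shared with other genes.

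Of the 31 genes for entry into the ER, 9 (29%) rose and 22 were not called. Over all genes tested the shares were 12.9% higher and 12.7% lower. TUSC3, an oxidoreductase subunit of the oligosaccharyltransferase, had the largest change of all these lists, from 153, 212 and 176 normalized counts to 438, 431 and 370 (log2 fold change 1.21, edgeR adjusted p = 1.12e-07). SEC11C, a subunit of the signal peptidase, rose by 0.25 on the log2 scale (edgeR adjusted p = 4.16e-05). Of 34 other folding factors 10 (29.4%) rose and 3 (8.82%) fell. The prolyl isomerase FKBP14 and the calnexin relative CLGN rose by 0.28 and 0.21, and the prolyl isomerases FKBP7 and FKBP9 were lower, at -0.71 and -0.18.

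Of 24 other ERAD genes 6 (25%) rose and 5 (20.8%) fell, beside 12.9% and 12.7% over all genes tested. UBE2J2 (a ubiquitin-conjugating enzyme) was at 0.18 and NGLY1 (which strips N-glycans in the cytosol) at 0.20. MAN1B1 (a mannosidase) was at -0.30 and FAM8A1 (a cofactor of SYVN1) at -0.24. Leaving out 1 library at a time, the number that fell was 2 to 4, and FAM8A1 was not called without control replicate 1 (edgeR adjusted p = 0.0533) or with 2 surrogate variables (DESeq2 adjusted p = 0.122). The number of these ERAD genes that fell was 1 with 2 surrogate variables, and the number that rose was 11 with GC offsets and the replicate block. Of 28 genes of ER exit and return 6 (21.4%) rose and 6 (21.4%) fell. The cargo receptor genes MIA3 and LMAN1 rose by 0.25 and 0.23, while the KDEL receptor KDELR3 (-0.42), which returns escaped chaperones to the ER, and the SNARE gene SEC22B (-0.20) fell. In the ER-phagy and UFM1 list 1 of 16 (6.25%) rose, DDRGK1 (0.20), and 3 (18.8%) fell, among them the ER-phagy receptor RETREG1 (-0.19) and UFSP2 (-0.25), 32.7% of whose exon bases another gene shares. DDRGK1 was not called without control replicate 3, RSL3 replicate 1 or RSL3 replicate 2 (edgeR adjusted p = 0.0781, 0.0613 and 0.0776), nor with 1 or 2 surrogate variables (DESeq2 adjusted p = 0.0710 and 0.188). Of 10 ER calcium genes 5 (50%) rose and 2 (20%) fell. The release channel ITPR1 was at 0.44 and ORAI1, the channel of store-operated calcium entry, at 0.25. STIM2, a calcium sensor, was at -0.32 and the pump ATP2A3 at -0.27. No test compared the 35 members with these lists.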

How the data were processed

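RNA of U87MG cells was sequenced in 6 libraries, grouped by their treatment label. According to the study's methods and the submitters' processing notes, the authors trimmed the reads (Trimmomatic 0.36), mapped them to GRCh38.p4 (HISAT2) and used HTSeq 0.6.1p1, unstranded, to count reads over exons. Their deposited files hold raw counts per Ensembl gene identifier, with no normalization. The annotation release used for counting was not given in the sources used here. Reads in more than 1 gene are dropped under the default of that counter, so a gene that shares exons may be undercounted.

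Symbols were matched for 56434 of the 65988 identifiers. Coordinates, exon overlaps and the transcript lengths behind TPM came from GENCODE v44, and promoters from RefSeq (GRCh38.p14). The tests used edgeR 4.0.16 under R 4.3.3, with filterByExpr (minimum count 10), TMM, the quasi-likelihood F test and Benjamini-Hochberg adjustment over the 16105 genes tested, with a threshold of 0.05. Normalized counts were scaled to the mean library size. The SE is the log2 fold change divided by the root of F. The common dispersion corresponded to a coefficient of variation of 4.14%. No 2 replicates matched within counting noise (chi-square per degree of freedom from 2.44 to 5.61). Scripts were tested on simulated data.

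Alternatives were other scalings and filters, DESeq2 1.42.0 with 0, 1 or 2 surrogate variables (sva 3.50.0), offsets for GC content, the replicate number as a block, each library left out, and a threshold of 0.01. All members are named. In each other list, up to 2 genes with the largest called change in each direction and a mean normalized count of at least 100 are named. The members and lists were chosen with earlier results of these data known. Ratios were compared by an exact permutation test over libraries.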

Additional observations from a re-analysis of the deposited data

How the results depend on the processing

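The number of UPR genes higher in RSL3-treated cells stayed between 12 and 18 over 16 other fits and a threshold of 0.01, and 12 genes were called higher in each of those fits. The number lower, 1, fell to 0 with DESeq2 and 2 surrogate variables, where EIF2AK3 had an adjusted p of 0.126, and at a threshold of 0.01, and ranged from 0 to 1 when each library was left out. In the other ER lists the number lower was 15 with 2 surrogate variables, against 25. ATF6 and HERPUD1 were not called with 2 surrogate variables (DESeq2 adjusted p = 0.0962 and 0.0804). Over all genes, the calls were 4123 as reported and 2268 with 2 surrogate variables. With the replicate number as a block, 16 UPR genes were higher, 1 was lower, and 4633 of all genes were called, while 59 and 30 genes of the other ER lists were higher and lower. In the list for entry into the ER, 14 rose under the block and 15 with offsets and block, against 9. Of the other regulators, 5 fell under the block and 1 with 2 surrogate variables, against 3. Deviations of same-numbered libraries correlated at 0.025, 0.027 and 0.072, and every library correlated best with its own number, a hint from the data and not from the design, so the numbers were not treated as pairs. Genes that were not called changed sign as follows. The log2 fold change of HYOU1 ranged from -0.16 to 0.17 when each library was left out, being positive without control replicate 2 (0.17) and without RSL3 replicate 3 (0.049). With offsets for GC content, that of EDEM1 was 0.013, that of EDEM3 0.035 and that of SEC61B 0.0078, and with offsets and block 0.013, 0.036 and 0.0090. With each library left out, EDEM3 ranged from -0.030 to 0.020, the latter without RSL3 replicate 2, and SEC61B from -0.039 to 0.0034, the latter without control replicate 1. The cause was not tested in these cases. In addition 6 genes were called in at least 1 other fit: ERN1, XBP1, DNAJC3, PDIA5, PDIA6 and WFS1.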

Other observations

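Several ER genes that are abundant in most cells had few reads here, beside ATF6B and HYOU1. SURF4, a cargo receptor of ER exit, had 63 reads over the 6 libraries and KRTCAP2, a subunit of the oligosaccharyltransferase, had 435, while KDELR1 had 18340. RPS25, a ribosomal protein gene 25.5 kb from HYOU1, had 547 reads, against a median of 90706 over 31 ribosomal protein genes of the small subunit. ATF6B lies in the major histocompatibility region of chromosome 6, where 20 of 174 protein-coding genes passed the filter (11.5%), against 65.1% of all other protein-coding genes. RNF5 and BAG6, ERAD genes that were not tested, had 0 and 43 reads. The cause of these low counts was not tested, and the levels of these genes are therefore uncertain.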
